A study of Mus musculus with 95 samples.

Results

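The comparison described here set the cortex of heterozygous zQ175 knock-in (KI) mice against that of wild type (WT) littermates in the line from which the neomycin resistance (neo) cassette had been deleted. It comprised 16 of the 95 small RNA libraries of the series, 8 KI and 8 WT, chosen by tissue, line and genotype in the sample labels. The zQ175 mouse is a model of Huntington's disease that carries an expanded CAG repeat in the mouse huntingtin gene. The KI mice were Het Z_Q175 (neo-) KI animals of the strain CHDI-81003019 on a C57BL6/J background, and the WT mice were their littermates on that background. All 16 mice were 6 months old, with 4 males and 4 females of each genotype, and the tissue was the cortex of the left hemisphere. Each library came from 1 mouse, and the cells of the cortex were not separated, so fewer cells of a type and less RNA per cell cannot be told apart.

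A microRNA (miRNA) is cut from a hairpin precursor and, loaded into an Argonaute protein, represses messenger RNAs that pair with its seed, bases 2 to 8 of the mature strand. In brain, the neighbouring miR-212 and miR-132 genes are transcribed together and are induced by neuronal activity through the transcription factor CREB. The large imprinted miRNA cluster of the Dlk1-Dio3 region, to which miR-127, miR-433, miR-409 and miR-136 belong, is expressed from the maternal chromosome and is abundant in neurons.

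The deposited tables list miRBase hairpin accessions without names, and neither the tables nor the labels give the species of the hairpin set. The accessions are read here as human miRBase hairpins. The names printed are recalled from miRBase and were not taken from a file of this study, so each rests on its accession, which is given beside the name of every leading entry. Names were assigned to 156 of the 194 entries tested, and the others are given by accession. The lists below hold only members that carry a name, so they too depend on it. The entries count mouse reads assigned to that hairpin set, and the mouse sequences and positions below are those of the mouse genes of the same name in RefSeq.

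The entries count whole hairpins, so they do not say which mature strand was read. For some of the entries that lead the comparison a single mature strand is shown, to show which of these strands share a seed (capitals mark bases 2 to 8, written 5′ to 3′, RefSeq, GRCm38.p6).
miR-212-3p: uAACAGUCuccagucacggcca
miR-132-3p: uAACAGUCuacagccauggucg
miR-127-3p: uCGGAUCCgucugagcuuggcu
miR-181a-5p: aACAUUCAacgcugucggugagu
miR-340-5p: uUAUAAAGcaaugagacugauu
miR-433-3p: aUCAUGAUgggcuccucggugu
The 3p strands of miR-212 and miR-132 carry the same seed, while the others each carry a seed of their own. The mouse Mir212 hairpin lies at chr11:75173388-75173478, plus strand, and Mir132 at chr11:75173682-75173747, plus strand, both in an intron of the noncoding transcript 1700016P03Rik of the GENCODE vM21 annotation. Mir127 lies at chr12:109592846-109592915, plus strand, in no annotated gene on that strand other than miRNA genes. Mir340 lies at chr11:50069702-50069799, plus strand, in an intron of the protein-coding gene Rnf130.

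Library names carry a number after the letter L (the L number), whose meaning the labels do not state. In cortex of this line, 3 KI and 5 WT libraries were L1 and 5 KI and 3 WT libraries were L8. Total counts ran from 118044 to 164218 in the L1 libraries and from 394760 to 496036 in the L8 libraries. In L8 against L1 libraries, 119 of 194 entries (61.3%) were called at an adjusted p under 0.05, 56 higher and 63 lower, so the L number was a covariate throughout. Levels of single entries are given below in TMM-scaled CPM, counts per 1000000 of a library total adjusted by edgeR's TMM factor, and sums over a list in plain CPM, counts per 1000000 of the unadjusted total. The tissue label was checked against brain markers: the summed level of the neuron and brain list (miR-124, miR-9 and miR-128 hairpins) was 67356 to 84573 CPM in KI and 73434 to 85771 CPM in WT. That list had a median of 58000 CPM in WT striatum of the line, so it cannot tell cortex from striatum. The liver list summed to 572 to 1212 CPM in KI and 518 to 1147 CPM in WT cortex, and to a median of 197121 CPM in WT liver of the line.

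No miRNA entry was called between KI and WT cortex: 0 of 194 entries tested (0%) passed an adjusted p of 0.05 in edgeR's quasi-likelihood test with L number and sex as covariates. At an unadjusted p under 0.05 there were 8 entries (4.12%), 4 higher and 4 lower in KI. The DESeq2 test on the same counts called 1 entry, mir-212, lower in KI. The 95% interval of the log2 change lay within 1.5-fold of no change for 142 entries and within 2-fold for 180, and reached past 2-fold for 14. The median distance from the estimate to either end of the interval was 0.26 for the 87 entries of at least 1000 CPM and 0.34 for the others. A p that misses the threshold does not show that the groups were alike.

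**Figure D1:**
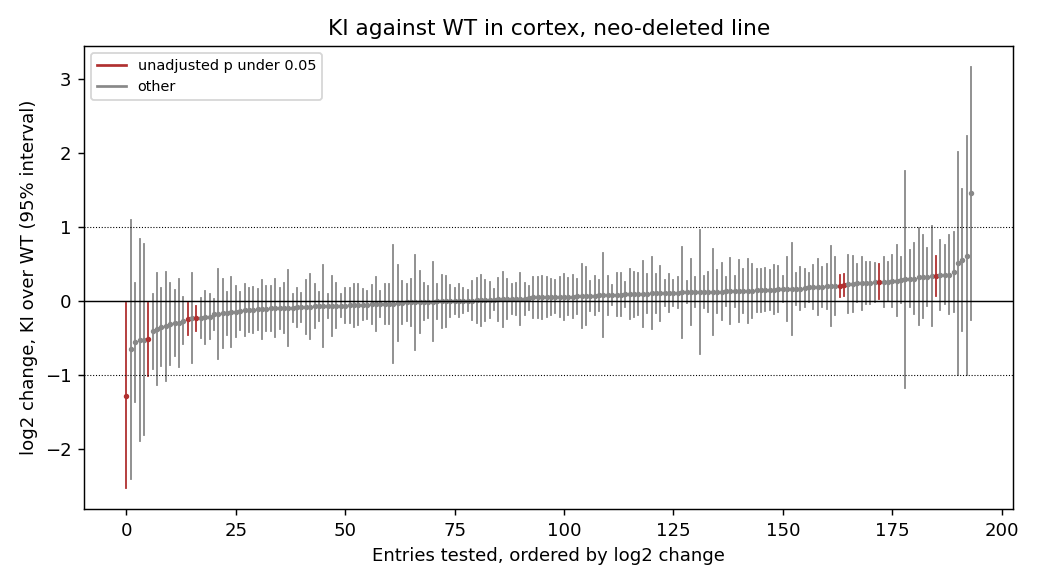
The log2 change of KI over WT (vertical axis) with its 95% interval for each of the 194 entries tested, ordered by size; dotted lines mark a 2-fold change. Most intervals include 0, and the 8 entries in red had an unadjusted p under 0.05 without passing the adjusted threshold.

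The entries closest to the threshold among those lower in KI were the activity-dependent pair mir-212 (MI0000288) and mir-132 (MI0000449). In the L8 libraries mir-212 had 1647, 1339, 1693, 1564 and 1648 CPM in KI, against 2115, 2153 and 1689 CPM in WT. There, 4 of the 5 KI libraries lay below every WT library. In the L1 libraries it had 1811, 2086 and 2551 CPM in KI, against 2589.7, 2953, 2069, 2209 and 2375 CPM in WT, and those groups overlapped, with 1 of 3 KI libraries below every WT library. Over all libraries mir-212 averaged 1792 ± 372 CPM in KI and 2269 ± 378 CPM in WT (SD, n = 8 each). Its fitted difference was -0.24 on the log2 scale (SE 0.079, 95% interval -0.41 to -0.068), with unadjusted p = 0.00915, adjusted p = 0.724 by edgeR's quasi-likelihood test. In the other settings tried its value stayed negative in 32 of 32, from -0.35 to -0.23, with adjusted p-values from 0.0172 to 0.94. It was called in 4 of them: by DESeq2 (adjusted p = 0.0212), with total counts as the only scaling in edgeR (adjusted p = 0.0289), and by limma on log2(FPKM + 1) and log2(FPKM + 0.1) (adjusted p = 0.0216 and 0.0172). The 2 FPKM settings differ only in the constant added. Over all entries the median log2 change was -0.049 with total counts and -0.066 on either FPKM scale, against 0.050 in the main fit, so values in general were lower there.

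The entry mir-132 had a lowest of 4849.7, a median of 6010.0 and a highest of 7286 CPM in the KI libraries, against a lowest of 4684, a median of 6390.5 and a highest of 9235 CPM in the WT libraries. The groups overlapped, though in L8 libraries 4 of 5 KI libraries lay below every WT library. Its mean was 6272 ± 626 CPM in KI and 7783 ± 1280.4 CPM in WT among L8 libraries (SD, n = 5 and 3) and 5199.7 ± 570.3 CPM in KI and 5857 ± 808 CPM in WT among L1 libraries (SD, n = 3 and 5). The fitted difference was -0.24 on the log2 scale (SE 0.10, 95% interval -0.46 to -0.026), with unadjusted p = 0.0303, adjusted p = 0.874 by edgeR's quasi-likelihood test. It was negative in 32 of 32 other settings and called in none, the lowest adjusted p being 0.25.

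Among entries with higher values in KI, mir-181a-1 (MI0000289), a hairpin of the miR-181 family known for roles in lymphocytes and in neurons, had a lowest of 104446, a median of 132697 and a highest of 155923 CPM in the KI libraries, against a lowest of 101482, a median of 115964 and a highest of 124249 CPM in the WT libraries. In L1 libraries all 3 KI libraries lay above every WT library, and in L8 libraries 3 of 5 did. The difference was 0.21 on the log2 scale (SE 0.068, 95% interval 0.068 to 0.36), with unadjusted p = 0.00685, adjusted p = 0.724 by edgeR's quasi-likelihood test. Estimated counts of this entry were not whole, so reads shared with mir-181a-2, which has the same 5p strand, could have been split between them. The imprinted mir-127 (MI0000472), the most abundant entry, took 11.6 to 20.8% of the counts of a library in KI and 10.4 to 19.7% in WT. Its TMM-scaled level, which cannot be read as a share of the library, differed between L numbers, with means of 236587 ± 38619 CPM in KI and 197657 ± 25636 CPM in WT among L1 libraries (SD, n = 3 and 5) and 111176 ± 5300.3 CPM in KI and 102699 ± 8712 CPM in WT among L8 libraries (SD, n = 5 and 3). The difference was 0.20 on the log2 scale (SE 0.069, 95% interval 0.052 to 0.35), with unadjusted p = 0.0112, adjusted p = 0.724 by edgeR's quasi-likelihood test, and without the L number as a covariate it was -0.037.

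The entry mir-15a (MI0000069), of the miR-15 and miR-16 group known for repressing cell cycle and anti-apoptotic genes, had a lowest of 232, a median of 363 and a highest of 483 CPM in the KI libraries, against a lowest of 188, a median of 261 and a highest of 363 CPM in the WT libraries. In L8 libraries 4 of 5 KI libraries lay above every WT library, whereas in L1 libraries KI libraries lay on both sides of the WT range. The difference was 0.33 on the log2 scale (SE 0.13, 95% interval 0.063 to 0.61), with unadjusted p = 0.0189, adjusted p = 0.874 by edgeR's quasi-likelihood test. It was 0.0020 among L1 libraries and 0.48 among L8 libraries, the lowest and highest values of 32 alternatives. The entry mir-340 (MI0000802) had a lowest of 997, a median of 1309.8 and a highest of 1703 CPM in the KI libraries, against a lowest of 565, a median of 887 and a highest of 1415 CPM in the WT libraries. Every L8 library lay above every L1 library, and more KI than WT libraries were L8, so these medians also reflect the L number. All 3 KI libraries exceeded every WT library among L1 libraries, and among L8 libraries the groups overlapped. The means were 1068 CPM in KI and 801 CPM in WT among L1 libraries, and 1452 CPM in KI and 1355 CPM in WT among L8 libraries. The difference was 0.26 on the log2 scale (SE 0.11, 95% interval 0.021 to 0.49), with unadjusted p = 0.0345, adjusted p = 0.874 by edgeR's quasi-likelihood test.

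**Figure D2:**
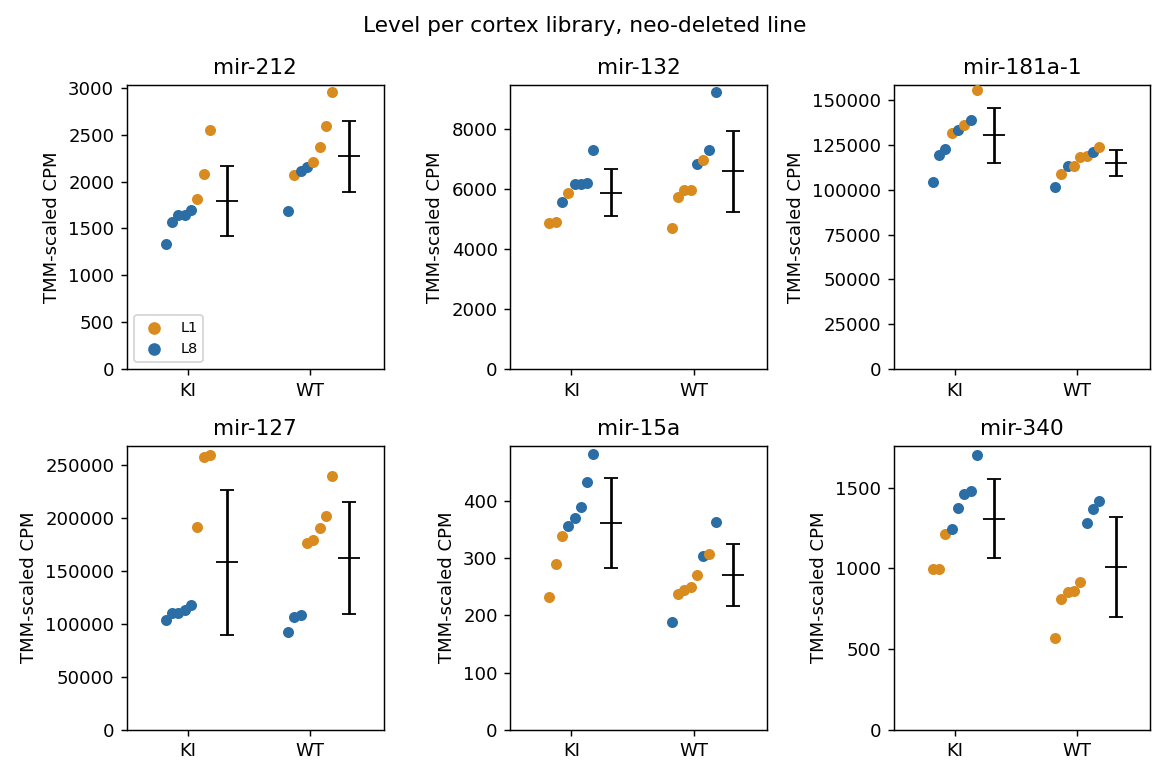
TMM-scaled CPM (vertical axes, from 0) of 6 entries in each of the 8 KI and 8 WT cortex libraries, coloured by L number; the bar beside each group gives mean and SD. The KI and WT points overlap in each panel, and L1 and L8 libraries separate for mir-127 and mir-340.

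The other entries with the smallest p-values were MI0005567 and MI0003938, which carry no name here, and the imprinted mir-433 (MI0001723) and mir-409 (MI0001735). MI0005567 was rare and had a lowest of 10.03, a median of 25.1 and a highest of 49.8 CPM in the KI libraries, against a lowest of 31.8, a median of 40.2 and a highest of 58.1 CPM in the WT libraries, so that the groups overlapped, with a difference of -0.52 on the log2 scale (SE 0.23, 95% interval -1.01 to -0.024). MI0003938 had a difference of -1.28 on the log2 scale (SE 0.59, 95% interval -2.53 to -0.031), which rested on 1 library: that of the first WT female (WT F1) had 1283 CPM, and without that library the value was 0.014. In the same library mir-34c had 1937 CPM and the summed choroid plexus markers 10080.3 CPM, against 2029 to 3494 CPM in the KI libraries, and the part of other tissue in these values was not tested. The difference was 0.26 (SE 0.12) for mir-433 and 0.25 (SE 0.12) for mir-409, on the log2 scale. The value of mir-409 was 0.42 among L1 libraries, where 3 of 3 KI libraries lay above every WT library, and -0.037 among L8 libraries, where 0 of 5 did.

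None of the lists examined held a called member, and over all 194 entries 117 values lay above 0 and 77 below, with a median log2 change of 0.050. With DESeq2's size factors 101 values lay above 0 and 93 below (median 0.0073), and with total counts as the scaling 78 values lay above 0 and 116 below (median -0.049). Among L1 libraries alone 72 values lay above 0 and 102 below (median -0.043). Among L8 libraries alone 101 lay above 0 and 109 below (median -0.0062). Of the 50 hairpins on the Dlk1-Dio3 list 24 carry a name here, and 16 of 19 tested members had values above 0 and 3 below, with a median log2 change of 0.16. With total counts as the scaling the median was 0.071, against -0.049 for all entries, and among L1 libraries alone it was -0.0082. In the let-7 family, which represses proliferation genes, 9 of 12 tested members had values above 0 and 3 below, with a median log2 change of 0.12. In the miR-181 family 5 of 5 tested members had values above 0 and 0 below, with a median log2 change of 0.17, but among L8 libraries alone 2 of 5 lay above 0. In the group of miR-99, miR-100 and miR-125 6 of 6 tested members had values above 0 and 0 below, with a median log2 change of 0.17. In the miR-15 and miR-16 group 4 of 4 tested members had values above 0 and 0 below, with a median log2 change of 0.15, and among L1 libraries the median was -0.036. Estimated counts were not whole for any tested miR-181 hairpin or any let-7 hairpin, nor for mir-99a, mir-100, mir-125b-1, mir-125b-2, mir-16-1 and mir-16-2. Reads shared by related hairpins could have been split between them, so members of these lists may not be separate measurements.

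In the list chosen as neuron-enriched miRNAs, 11 of 21 tested members had values above 0 and 10 below, with a median log2 change of 0.0020. With DESeq2's size factors 8 values lay above 0 and 13 below (median -0.038). With total counts as the scaling 7 values lay above 0 and 14 below (median -0.098). Each of these medians was the value of mir-22, the most abundant tested member of the list. The list had a median sum of 75841 CPM in WT liver of the line, against 77.8 CPM for the neuron and brain list. Its members are therefore not all particular to neurons. In the list of miRNAs reported in Huntington's disease brain or models, 13 of 29 tested members had values above 0 and 16 below, with a median log2 change of -0.062. For that list, 9 values lay above 0 and 20 below (median -0.10) with DESeq2's size factors, and 7 above and 22 below (median -0.15) with total counts. Among L1 libraries 6 values lay above 0 and 22 below (median -0.13), and among L8 libraries 10 above and 20 below (median -0.054). The medians over all entries were -0.043 among L1 and -0.0062 among L8 libraries. The list includes mir-212, mir-132 and mir-187 and was chosen with earlier results of these data known. The miR-30, miR-29 and miR-26 families had medians of -0.0064, 0.033 and 0.077. The group of miR-23, miR-24 and miR-27 had a median of -0.021, and the miR-17-92 group and its paralogs 0.065. These 5 medians differed in sign between the L numbers. They were 0.036 among L1 and -0.21 among L8 libraries for miR-30, -0.20 among L1 and 0.046 among L8 libraries for miR-29 and -0.071 among L1 and 0.021 among L8 libraries for miR-26. They were -0.24 among L1 and 0.11 among L8 libraries for the group of miR-23, miR-24 and miR-27, and 0.079 among L1 and -0.032 among L8 libraries for the miR-17-92 group. With total counts as the scaling the median was -0.047 for miR-29, -0.024 for miR-26 and -0.039 for the miR-17-92 group. Both tested members of the miR-34 and miR-449 list, mir-34a and mir-34c, had values below 0, but that of mir-34c was 0.13 without WT F1. Of the miR-183 cluster only mir-182 passed the filter, and no member of the miR-200 family did.

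**Figure D3:**
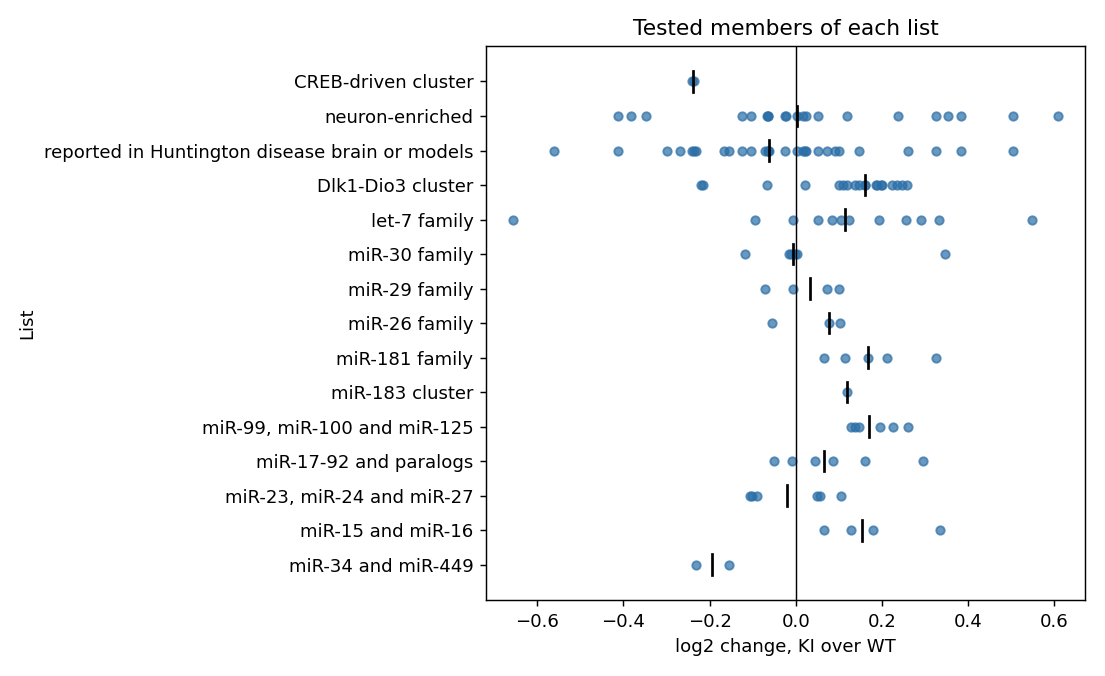
The log2 change of KI over WT (horizontal axis) of every tested member of each list, with the list's median as a vertical bar. Members of most lists lie on both sides of 0, and none was called.

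Over all libraries the ranges of the summed markers of other cells overlapped between the genotypes, but within L1 libraries those of oligodendrocytes did not. The summed level of oligodendrocyte entries was 1008 to 2749.8 CPM in KI and 1299.8 to 2609 CPM in WT. That of microglia and leukocyte entries was 2096 to 4727 CPM in KI and 2384 to 4376 CPM in WT, and that of endothelial and vessel wall entries 7525 to 24057 CPM in KI and 9784 to 24915 CPM in WT. Within L1 libraries oligodendrocyte entries summed to 1008 to 1259 CPM in KI and 1299.8 to 2503 CPM in WT (n = 3 and 5). Within L8 libraries they summed to 2199 to 2749.8 CPM in KI and 2190.3 to 2609 CPM in WT. These sums are not TMM-scaled. Of the oligodendrocyte entries only mir-338 passed the filter. Its fitted log2 change was -0.11 (SE 0.14), with unadjusted p = 0.470, adjusted p = 0.901 by edgeR's quasi-likelihood test. Microglia and leukocyte entries summed to 2096 to 2453 CPM in KI and 2384 to 2927 CPM in WT within L1 libraries and to 3599.6 to 4727 CPM in KI and 3503 to 4376 CPM in WT within L8 libraries, and both pairs of ranges overlapped. The part of these cell types in the values of other entries was not tested. Entries of the erythroid list summed to 32.7 to 581 CPM in KI and 72.3 to 718 CPM in WT. Of that list mir-451a had no count in any of the 16 libraries, and only mir-486-1 passed the filter. The sum therefore cannot gauge the blood in the tissue.

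The striatum of the same line, with 7 KI and 8 WT libraries, gave 36 called entries of 205 (17.6%). None of the striatal libraries was L1, whereas 3 KI and 5 WT cortex libraries were, and L1 libraries had the lower total counts in cortex. The part of the L number and of depth in the counts of called entries was not tested. In striatum the values were -0.71 (SE 0.081, adjusted p = 2.18e-05) for mir-212, -0.64 (SE 0.070, adjusted p = 2.18e-05) for mir-132, -0.93 (SE 0.093, adjusted p = 1.26e-05) for mir-187 and 0.53 (SE 0.076, adjusted p = 1.51e-04) for mir-181c. In cortex, mir-187 had -0.30 (SE 0.21) and mir-181c 0.11 (SE 0.070), neither of them called. The entry mir-187 was rare in cortex, with a median of 54.8 CPM in KI and 65.7 CPM in WT, against 3801 CPM in WT striatum (plain CPM). The test of the difference of the KI effect between the tissues, with the animal as a block, called 1 of 212 entries (0.472%), and 27 (12.7%) had an unadjusted p under 0.05. The difference of the KI effect, cortex minus striatum, was 0.53 (SE 0.12, adjusted p = 0.0789) for mir-212, 0.50 (SE 0.14, adjusted p = 0.155) for mir-132 and 0.65 (SE 0.27, adjusted p = 0.346) for mir-187, none of them called with the block. For mir-181c the difference was not called with the block, nor without it, at -0.37 (SE 0.10, adjusted p = 0.0650, edgeR). Without the animal block the difference was called for mir-212, at 0.52 (SE 0.11, adjusted p = 0.00608), and for mir-132, at 0.45 (SE 0.11, adjusted p = 0.0247), but not for mir-187, at 0.70 (SE 0.24, adjusted p = 0.211), all by edgeR. That fit leaves out that the tissues share animals. With the block and DESeq2's size factors none of these entries was called (adjusted p = 0.166 for mir-212, 0.202 for mir-132 and 0.440 for mir-187, edgeR). Among L8 libraries, fitted without the block, none was called either (adjusted p = 0.129, 0.117 and 0.218 in that order, edgeR).

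The called entry was mir-484 (MI0002468), which lies outside the naming rule and was picked for this result. The KI effect in cortex minus that in striatum was 0.81 (SE 0.16, adjusted p = 0.0279) for it. Its KI effect was 0.23 (SE 0.12, adjusted p = 0.874) in cortex and -0.51 (SE 0.097, adjusted p = 0.00156) in striatum. In cortex it had a lowest of 341, a median of 420.1 and a highest of 585 CPM in the KI libraries, against a lowest of 288, a median of 361 and a highest of 519 CPM in the WT libraries, and the groups overlapped. The difference was 0.74 with DESeq2's size factors (adjusted p = 0.117), 0.70 among L8 libraries (adjusted p = 0.0828) and 0.79 without the block (adjusted p = 0.00136), all from edgeR, so the call was lost in 2 of the 3.

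The cortex of the line with an intact neo cassette (strain CHDI-81003003, 8 Het KI and 8 WT libraries) had all 8 KI libraries in L1, against 3 WT libraries in L1, 4 in L8 and 1 in L2. With the L number as covariate its comparison therefore rested on 8 KI and 3 WT libraries. It had 0 called of 174 entries (0%). Its values were -0.20 (SE 0.17, adjusted p = 0.727) for mir-212 and -0.22 (SE 0.12, adjusted p = 0.682) for mir-132. The test of the difference between the lines, which has the same imbalance, called 0 of 186 entries (0%), with 13 (6.99%) at an unadjusted p under 0.05. A difference of the KI effect between females and males of the neo-deleted line was called for 0 of 194 entries (0%), with 5 (2.58%) at an unadjusted p under 0.05. A difference of the KI effect between L8 and L1 libraries was called for 0 of 194 (0%), with 10 (5.15%) at an unadjusted p under 0.05. These counts are from edgeR.

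**Figure D4:**
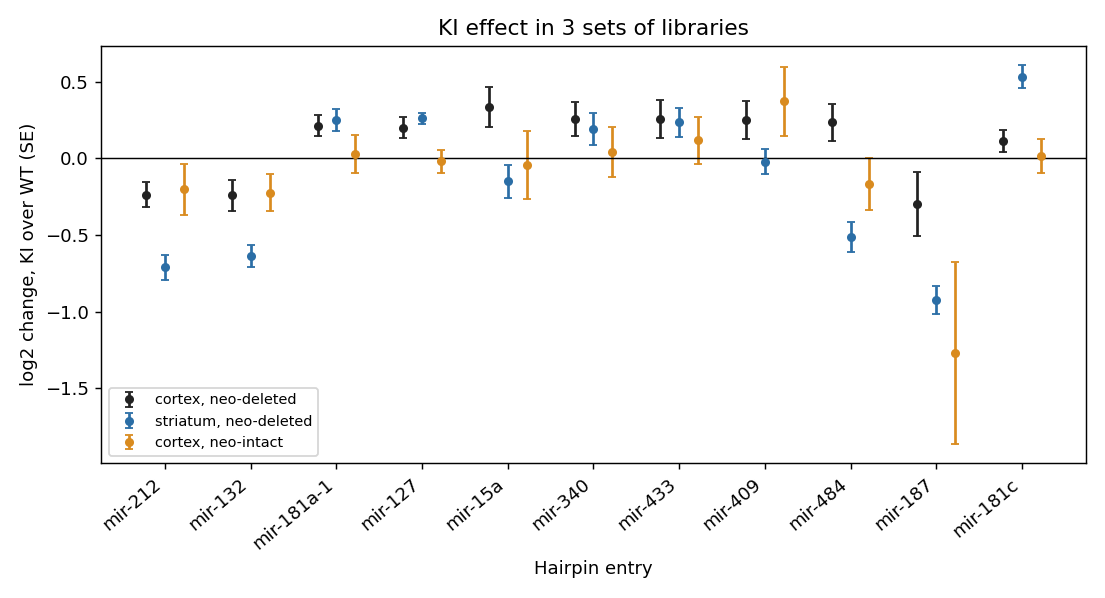
The log2 change of KI over WT (vertical axis; bars are SE) of 11 entries in cortex of the neo-deleted line, striatum of that line and cortex of the neo-intact line. The striatal values of mir-212, mir-132 and mir-187 are further below 0 than the cortical values of the same line. With the animal block that difference was called for none of the 3. Without the block it was called for mir-212 and mir-132 over all libraries, and for none of the 3 among L8 libraries.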

How the data were processed

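The authors deposited estimated counts per hairpin entry, not scaled for library size, and FPKM values for 1881 entries. CASAVA 1.8.2 and the build mm10 were used, per the submitters' processing notes; for the aligner, counting method and strand setting, the sources used here give nothing. The estimates, rounded to whole counts, entered edgeR 4.0.16 under R 4.3.3 (TMM scaling, filterByExpr with a minimum count of 10 and total of 15, quasi-likelihood test, L number and sex as covariates, Benjamini-Hochberg adjustment over all entries tested). DESeq2 1.42.0 and limma 3.58.1 served as alternatives. The entries tested held at least 99.87% of each library's counts.

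No file used here pairs accessions with names. Names were recalled from human miRBase, and 1 recalled accession proved absent from the table and was dropped. Names of later accessions, for which row place, hairpin length or tissue level had been in view, were withdrawn after the main test had been seen. The design set before the files were read had said that accessions would stand in place of names. As a check only, 93 pairs of names whose mouse RefSeq hairpins lie within 10000 bases of each other were compared with their rows, and 93 lay within 20 rows. The check covers 73 of 215 names and cannot detect an exchange of neighbours. Of the 47 entries described singly, 34 matched a RefSeq hairpin.

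Entries described singly were the 10 of smallest p, the 3 most abundant members of each list, mir-187, mir-212, mir-132 and mir-181c, and mir-484. Members and lists were chosen with earlier results of these data known. The KI against WT fit in cortex was tested on simulated counts with planted 2-fold changes, larger than the values of mir-212 and mir-181a-1. The tests of differences between KI effects were not tested in this way. KI and WT mice with the same number were different animals, so the numbers do not pair them. Cortex and striatum of 1 animal share it, which the block uses; correlations of their residuals ran from -0.35 to 0.14 over 15 animals.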

Additional observations from a re-analysis of the deposited data

Results flagged for a closer look

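Libraries that stood apart from the other 7 of their group were looked for with Dixon's test at its 95% critical value, which chance passes in about 1 of 20 groups. Of 94 groups looked at, 5 passed it, against 4.7 that a rate of 1 in 20 gives. Each group pools L1 and L8 libraries, and all groups come from the same 16 libraries, so that rate need not hold here. Values are in TMM-scaled CPM. The MI0003938 value of library WT F1 was 1283 CPM, higher than the nearest WT library at 120.2 CPM. The let-7f-2 value of library KI M2 was 1553 CPM, lower than the nearest KI library at 10578 CPM. The let-7i value of library WT F4 was 7919 CPM, higher than the nearest WT library at 6184 CPM. The mir-34c value of library WT F1 was 1937 CPM, higher than the nearest WT library at 726 CPM. The mir-187 value of library WT M4 was 169.6 CPM, higher than the nearest WT library at 99.3 CPM. The KI effect on mir-484 differed between cortex and striatum by 0.81 on the log2 scale (SE 0.16, adjusted p = 0.0279, edgeR). No explanation of these values was tested.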

How the results depend on the processing

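The count of called entries in cortex of the neo-deleted line was 0 in 28 of 32 alternatives, each of the 16 fits that left out 1 library among them, and 1 (mir-212, lower in KI) with total counts as the scaling, in DESeq2 and in limma on either FPKM scale. With the 8 numbers as a replicate block the count was 0, and 1 of 16 libraries correlated best with its own number. The difference between cortex and striatum had 1 called entry, and 0 with DESeq2's size factors, 0 among L8 libraries and 4 without the animal block, mir-484, mir-212 and mir-132 among them. The part of depth in the wider intervals of rare entries was not tested. Of the 47 entries described singly, 34 changed sign in some alternative; none of these was called in either fit, and the cause was not tested. Without the L number the log2 change was -0.037 for mir-127, -0.093 for mir-9-2, -0.17 for mir-30e, 0.12 for mir-29a, 0.13 for mir-29c, -0.0018 for mir-181b-2, -0.041 for mir-182, -0.13 for mir-92a-1, -0.030 for mir-93 and -0.074 for mir-16-1. Among L1 libraries the log2 change was 0.33 for MI0003938, -0.14 for mir-22, -0.097 for mir-410, -0.012 for mir-136, -0.19 for let-7f-2, 0.049 for mir-30a, 0.024 for mir-30d, -0.0058 for mir-29b-2, -0.079 for mir-26a-1, -0.054 for mir-125b-1, 0.14 for mir-92a-2, -0.19 for mir-27b, -0.28 for mir-24-2, -0.20 for mir-16-2, -0.073 for mir-195 and 0.19 for mir-34c. Among males the log2 change was 0.012 for MI0003938, -0.041 for mir-22, -0.083 for mir-9-2, -0.10 for let-7f-2, -0.032 for let-7c, -0.18 for mir-30e, -0.026 for mir-29b-2, -0.054 for mir-26a-1, -0.015 for mir-26b, -0.10 for mir-92a-1, -0.25 for mir-93, -0.099 for mir-16-2, -0.094 for mir-16-1 and 0.14 for mir-34c. Among L8 libraries the log2 change was -0.037 for mir-409, -0.16 for mir-9-2, -0.25 for mir-30e, 0.052 for mir-29a, 0.041 for mir-29c, -0.20 for mir-181a-2, -0.018 for mir-181b-2, -0.50 for mir-182, -0.030 for mir-125a, -0.20 for mir-92a-1, -0.079 for mir-93 and -0.042 for mir-16-1. With DESeq2's size factors the log2 change was -0.038 for mir-22 and -0.042 for mir-30e. With total counts as the scaling the log2 change was -0.098 for mir-22, -0.053 for mir-9-2, -0.10 for mir-30e, -0.024 for mir-26a-1, -0.018 for mir-92a-1, -0.061 for mir-93, -0.035 for mir-24-2 and -0.033 for mir-16-2. Without the filter the log2 change was -0.044 for mir-22, -0.0060 for mir-9-2, -0.055 for mir-30e and -0.0072 for mir-93. With at least 10 CPM in 8 libraries the log2 change was -0.052 for mir-22, -0.0072 for mir-9-2, -0.056 for mir-30e and -0.011 for mir-93. In DESeq2 the log2 change was -0.037 for mir-22, -0.042 for mir-30e and -0.0080 for mir-93. With limma on log2(FPKM + 1) the log2 change was -0.095 for mir-22, -0.057 for mir-9-2, -0.096 for mir-30e, -0.025 for mir-26a-1, -0.14 for mir-182, -0.012 for mir-92a-1, -0.072 for mir-93, -0.069 for mir-24-2 and -0.034 for mir-16-2. With limma on log2(FPKM + 0.1) the log2 change was -0.095 for mir-22, -0.057 for mir-9-2, -0.096 for mir-30e, -0.025 for mir-26a-1, -0.14 for mir-182, -0.012 for mir-92a-1, -0.072 for mir-93, -0.069 for mir-24-2 and -0.034 for mir-16-2. Without the sex term the log2 change was -0.0029 for mir-22. Among females the log2 change was -0.083 for mir-22, 0.0023 for mir-30a, 0.052 for mir-30d, 0.022 for mir-29c, 0.17 for mir-26a-2, -0.082 for mir-182, -0.040 for mir-125b-1, -0.24 for mir-99b, 0.039 for mir-23b and -0.078 for mir-24-2. With all 32 cortex libraries the log2 change was -0.068 for mir-22, -0.0091 for mir-9-2, -0.057 for mir-30e and -0.016 for mir-93. With limma voom the log2 change was 0.0067 for mir-30a, 0.045 for mir-30d, 0.018 for mir-29c, 0.011 for mir-26a-2, -0.00092 for mir-182 and 0.016 for mir-92a-2. With the replicate block the log2 change was -0.0084 for mir-30e. With 1 library left out at a time the log2 change ran from -1.60 to 0.014 for MI0003938, from -0.065 to 0.52 for let-7f-2, from -0.018 to 0.18 for mir-125b-1, from -0.026 to 0.27 for mir-16-1, from -0.024 to 0.086 for mir-16-2, from -0.26 to 0.28 for mir-182, from -0.065 to 0.00035 for mir-22, from -0.12 to 0.13 for mir-24-2, from -0.048 to 0.15 for mir-27b, from -0.15 to 0.00038 for mir-30a, from -0.098 to 0.0070 for mir-30d, from -0.10 to 0.055 for mir-30e, from -0.30 to 0.13 for mir-34c, from -0.055 to 0.058 for mir-9-2, from -0.019 to 0.14 for mir-92a-1, from -0.20 to 0.054 for mir-92a-2, from -0.12 to 0.075 for mir-93 and from -0.064 to 0.21 for mir-99b.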
